A study of Homo sapiens with 11 samples.

Results

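DDIT4 (the gene of REDD1), the sestrin genes SESN1, SESN2 and SESN3, the tribbles genes TRIB1 and TRIB3, and CHAC1, ATF4, DDIT3 and ASNS were described in 786-0 cells given the mTOR inhibitor everolimus. These 10 genes were chosen by symbol, with earlier results of these data known, so counts among them are not those of an unselected set. All 10 were found among the 20500 entries of the deposited table, and 9 of them were tested. 786-0, an established human cell line from a clear cell renal carcinoma, has no working VHL protein, so its hypoxia-inducible factor (HIF) signalling is active in normal oxygen. All samples were grown in DMEM and exposed to DMSO for 4 h, alone in the 6 controls and carrying everolimus in the other 5, at a dose labelled 10um and taken to mean 10 µM. The labels do not say whether samples of a group were separate cultures, so p-values measure only the spread among the libraries, and that spread may be technical.

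Everolimus binds the immunophilin FKBP12 and blocks mTOR complex 1 (mTORC1), the kinase that couples nutrients to protein and lipid synthesis. A single dose of a single compound was used, so changes through mTORC1 and other effects of the drug cannot be told apart. REDD1 and the sestrins are stress-induced proteins that hold mTORC1 back, REDD1 through the TSC complex and the sestrins through GATOR2, the complex from which SESN2 is released when leucine is present. ATF4 is a transcription factor whose mRNA is translated when the factor eIF2 is phosphorylated under amino acid shortage or endoplasmic reticulum (ER) stress, and mTORC1 is also known to raise ATF4 protein. It induces DDIT3 (the factor CHOP), TRIB3, CHAC1, ASNS, SESN2 and DDIT4.

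Libraries held 14230668 to 36828259 estimated reads in the controls and 29760673 to 52522839 with everolimus. Levels are in scaled estimated reads (units). Each library's values above 0 had an upper quartile of about 1000. A single read corresponded to 0.307 to 1.05 units. The scale is not per transcript length, so levels are compared between samples and not between genes. All 10 renal carcinoma markers examined were expressed, PAX8 at 3189 ± 78.7 units (SD, n = 6) in the controls. Of 22 markers of leukocytes, endothelium, fibroblasts, liver, neurons and glandular epithelium, 15 stayed under 10 units in every library, and CD3E, PECAM1 and TTR were at 0 throughout. The other 7 were expressed. In the controls ENO2 averaged 1259 ± 48.3 units (SD, n = 6) and CD68 385 ± 37.3. The fibroblast markers LUM, COL1A1 and PDGFRB averaged 89.8, 75.5 and 36.6, EPCAM 55.2 and SYP 18.7. The summed level of all 22 was 1816 to 2046 units in the controls and 1686 to 1871 with everolimus, mostly from ENO2 and CD68, and its part in the results was not tested. By the share of whole read numbers among low values, 2 sets of libraries stood apart. The first held everolimus 1 and 2 with controls 1 to 3, and the second held everolimus 3 to 5 with controls 4 to 6. The labels name no batch, and the fold changes and counts of calls were also computed within each set.

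Promoter letters are shown for the 2 genes whose windows hold an ATF4 element and for DDIT4, the gene with the largest change. ATF4 dimers bind the C/EBP-ATF response element (CARE, searched as TGATGNAA), and HIF binds cores written ACGTG or GCGTG. Windows are the 250 bases before a RefSeq transcription start (GRCh38.p14), written 5′ to 3′ on the gene's strand, and capitals mark CARE matches in CHAC1 (chr15:40953221-40953470, plus strand) and ASNS (chr7:97872409-97872658, minus strand), and HIF core matches in DDIT4 (chr10:72273674-72273923, plus strand).
CHAC1: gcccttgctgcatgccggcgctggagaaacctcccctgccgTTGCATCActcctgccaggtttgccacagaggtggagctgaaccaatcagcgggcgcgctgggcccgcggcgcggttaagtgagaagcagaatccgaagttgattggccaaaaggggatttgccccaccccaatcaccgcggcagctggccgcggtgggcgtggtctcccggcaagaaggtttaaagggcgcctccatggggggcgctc
ASNS: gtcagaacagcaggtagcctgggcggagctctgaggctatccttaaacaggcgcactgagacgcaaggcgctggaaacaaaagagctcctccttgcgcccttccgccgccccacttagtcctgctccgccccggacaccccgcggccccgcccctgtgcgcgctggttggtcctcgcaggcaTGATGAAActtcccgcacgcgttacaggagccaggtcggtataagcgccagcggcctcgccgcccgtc
DDIT4: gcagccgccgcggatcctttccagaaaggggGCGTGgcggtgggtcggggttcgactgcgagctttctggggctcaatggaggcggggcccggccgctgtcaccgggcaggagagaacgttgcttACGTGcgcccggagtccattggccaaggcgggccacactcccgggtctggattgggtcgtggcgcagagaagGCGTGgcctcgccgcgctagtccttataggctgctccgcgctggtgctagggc
In CHAC1 the CARE lay 209 to 202 bases before the start on the opposite strand, and in ASNS 68 to 61 bases before it. Of the 9 genes with a window (16 windows in all), CHAC1 and ASNS held this element, as did 3.14% of all 35116 promoter windows searched on both strands. The DDIT4 window held 3 HIF cores, at 219, 125 and 53 bases before the start, and each of the 3 TRIB3 windows, which overlap one another, held 6. At least 1 such core was found in 7 of the 9 genes and in 43.2% of all windows. For every element a gene was counted if any of its windows matched, whereas the shares are of single windows, so the counts and shares are not on the same basis. The E-box CACGTG, which contains ACGTG on both strands, was found in ATF4 and in 6.34% of windows. The cAMP element TGACGTCA (1.65% of windows) and the ER stress element ERSE (0.074%) were found in none of the 9. These are matches of letters, and binding was not measured. Elements outside the windows, further upstream or after the start, were not searched, so a gene without a match may still hold one.

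After 4 h with everolimus 7 of the 9 tested genes fell, 1 rose and 1 did not pass. Across all 12668 genes tested, 55.2% changed, with 27.4% lower and 27.8% higher (limma, adjusted p under 0.05 after Benjamini-Hochberg adjustment). The 7 that fell were DDIT4, CHAC1, SESN2, TRIB3, DDIT3, ATF4 and ASNS, the one that rose was TRIB1, and SESN1 did not pass. For each of the 8 the groups did not overlap, which held for 37.9% of all genes, downward for 17.6% and upward for 20.3%. The median log2 fold change was -0.66 over the 9 genes and -0.0081 over all genes tested. In bulk RNA, a lower level in every cell and a loss of the transcript from a part of the cells cannot be told apart.

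**Figure D1:**
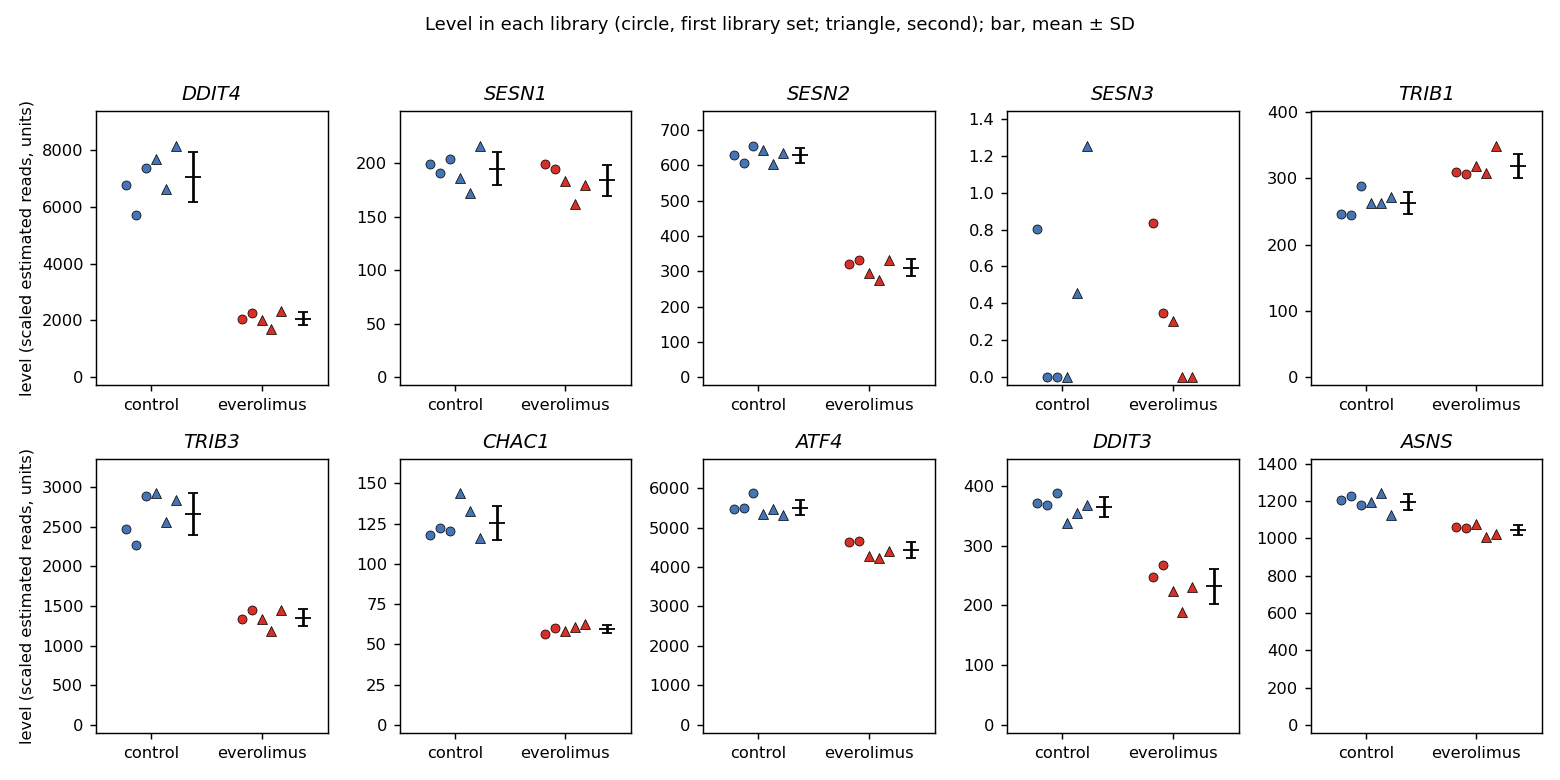
Level of each gene in every library, in scaled estimated reads on linear axes that include 0, for 6 control and 5 everolimus libraries (circles first library set, triangles second), with mean and SD for the 9 tested genes. DDIT4 stood between 5716 and 8169.8 units in the controls and between 1709.5 and 2326 with everolimus, while SESN1 overlapped and SESN3 was near 0.

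Of the 9 genes DDIT4 changed most. In the controls its level ran from 5716 to 8169.8 units with a median of 7076. With everolimus it was 2050.1, 2253, 2000.3, 1709.5 and 2326 units in samples 1 to 5. Every everolimus sample was thus far below the lowest control. The mean fell 3.42-fold, from 7064 ± 871 (SD, n = 6) to 2068 ± 242 (n = 5), a log2 fold change of -1.77 (SE 0.090, limma adjusted p = 6.91e-10). Ranked from the lowest fold change, DDIT4 was number 27 of the 12668 genes. Its annotated antisense gene DDIT4-AS1 overlaps its exons in GENCODE 29 (GRCh38), and the use of strand in counting is not given in the sources used here.

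The sestrins, sensors of leucine and redox stress, went separate ways. SESN2, a leucine sensor and ATF4 target, ran from 603.02 to 656.03 units in the controls (median 633). It was 321, 331, 294, 275 and 332 units in everolimus samples 1 to 5. The controls were tight and every everolimus sample lay well below them, with a fall of 2.03-fold (log2 -1.02, SE 0.053, adjusted p = 9.49e-10). SESN1, known as a p53 target, ran from 172 to 217 units in the controls (median 195) and was 200, 195, 184, 162 and 180.1 with everolimus. These groups overlapped, and the log2 fold change was -0.08 (SE 0.070, adjusted p = 0.342). SESN3, known as a FOXO target, was at 0 in 5 of 11 libraries and at 1.25 units or less in the others, at most 3 reads. The limit that a count of 0 allows, 3 reads, corresponded to 0.92 to 3.15 units, so no fold is given for SESN3 and it did not reach the filter of 10 units in 5 samples.

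The log2 ratio of 2 genes within a sample was used to test whether they changed by different amounts. The level of such a ratio depends on transcript lengths, and only its change is read. The ratio of SESN1 to SESN2 was 0.94 higher with everolimus, and that of DDIT4 to SESN2 was lower (-0.75). In both cases the 11 samples separated without overlap (exact permutation test, two-sided, p = 0.00433, the smallest that 6 against 5 samples can give, and 0.00433 adjusted over the 4 pairs tested). DDIT4 therefore fell further than SESN2, and SESN2 further than SESN1. The same design held 2 pairs with SESN3, which could not be tested.

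ATF4 itself fell by a small amount. It ran from 5325 to 5865 units in the controls (median 5478) and was 4623, 4661, 4282, 4225 and 4395 in everolimus samples 1 to 5. All 5 lay below the lowest control, and the mean with everolimus was 80.7% of that in the controls (log2 -0.31, SE 0.036, adjusted p = 4.12e-06). The abundance of this mRNA does not measure ATF4 protein, which is set largely by translation. GENCODE 29 lists 4 pseudogenes named for ATF4, and how reads were divided between them is uncertain.

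DDIT3, the pro-apoptotic factor CHOP that ATF4 induces, fell more. Its controls ran from 339 to 387 units (median 368), and the everolimus samples were at 248, 268, 225, 189 and 232. The fall was 1.57-fold (log2 -0.66, SE 0.075, adjusted p = 3.89e-06). The log2 ratio of ATF4 to DDIT3 was 0.35 higher with everolimus (exact permutation test, two-sided, p = 0.00433, adjusted 0.00433). Exons of DDIT3 overlap those of MARS, the methionyl-tRNA synthetase gene on the opposite strand, in GENCODE 29, as well as those of MBD6 on that strand and of 1 gene on its own strand. MARS fell too, from 2794 ± 121 to 2136 ± 31.6 units (log2 -0.39), and its part in the DDIT3 value was not tested.

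The targets downstream of ATF4 fell by unequal amounts. TRIB3, a pseudokinase that binds AKT and ATF4 and is induced by CHOP, ran from 2265 to 2919 units in the controls (median 2701). It was 1333, 1455, 1337, 1187 and 1444 units with everolimus, a fall of 1.97-fold (log2 -0.97, SE 0.070, adjusted p = 2.83e-08). Every everolimus sample lay well below the lowest control.

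CHAC1, which degrades glutathione and carries the CARE shown above, ran from 116 to 144 units in the controls (median 122) and was 56.3, 60.4, 58.6, 60.6 and 62.4 with everolimus. It fell 2.11-fold (log2 -1.06, SE 0.074, adjusted p = 1.98e-08). The everolimus samples averaged 59.7 ± 2.31 units (SD, n = 5), and CHAC1 rested on 115 to 292 reads per library. ASNS, asparagine synthetase, whose window holds the other CARE match, ran from 1125 to 1242 units in the controls (median 1199.7). It was 1061, 1056, 1076, 1005 and 1025 units with everolimus. The groups did not overlap, but the mean with everolimus was still 87.4% of that in the controls (log2 -0.19, SE 0.034, adjusted p = 0.00024). GENCODE 29 lists 4 pseudogenes named for ASNS, so its reads are uncertain in the same way as those of ATF4, and 1 other gene overlaps its exons on the same strand.

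TRIB1 rose. It is the tribbles gene that brings C/EBP factors to the ubiquitin ligase COP1. It ran from 245 to 288 units in the controls (median 262) and was 309.97, 306, 318, 307 and 349 with everolimus. All 5 everolimus samples lay above the highest control, a rise of 1.21-fold (log2 0.28, SE 0.055, adjusted p = 0.00066). The log2 ratio of TRIB1 to TRIB3 was 1.25 higher with everolimus, without overlap (exact permutation test, two-sided, p = 0.00433, adjusted 0.00433).

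**Figure D2:**
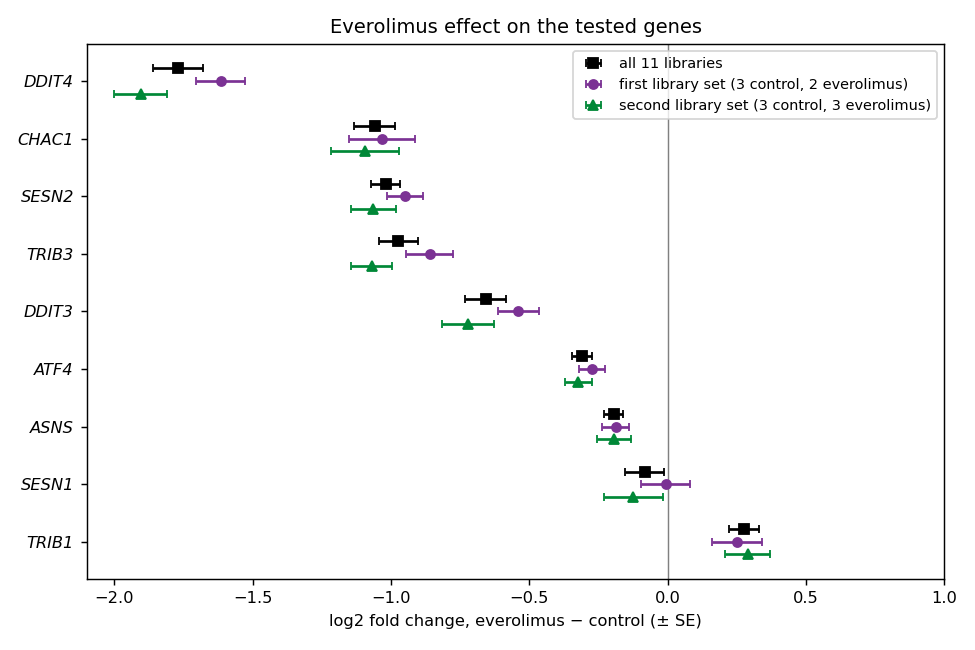
Log2 fold change of everolimus over control with its SE for the 9 tested genes, from all 11 libraries (squares), the first library set (circles) and the second (triangles). DDIT4 lies farthest to the left at -1.77, SESN1 is near 0 and TRIB1 is to the right of 0 in each of the 3 fits.

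Within the first set, and again within the second, the same 7 genes fell and TRIB1 rose. In the first set 43.3% of all genes changed, 19.3% downward and 24% upward. In the second 43.7% changed, 22.5% downward and 21.1% upward. DDIT4 had a log2 fold change of -1.62 (SE 0.089) within the first set against -1.90 (SE 0.095) within the second. TRIB3 stood at -0.86 and -1.07, DDIT3 at -0.54 and -0.72, SESN2 at -0.95 and -1.06, and CHAC1 at -1.03 and -1.10. Whether everolimus acted differently in the 2 sets was tested as an interaction in limma, which called 0 of 12668 genes (0%) and gave 783 (6.18%) at an unadjusted p under 0.05. None of the 9 tested genes of the panel was among the 783. DDIT4 came nearest, with a difference of -0.29 (SE 0.159, limma adjusted p = 0.803).

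Among the everolimus libraries, number 4 was the lowest for 7 of the 9 genes: DDIT4, SESN1, SESN2, TRIB3, ATF4, DDIT3 and ASNS. The same library was the lowest of the 5 for 41.7% of all tested genes and was the shallowest of the everolimus libraries at 29760673 estimated reads. DDIT3 ran from 189 units in number 4 to 268 in number 2. CHAC1 did not follow this order, since its lowest everolimus value was in number 1. Among the controls, DDIT4, TRIB3 and TRIB1 were lowest in number 2, and SESN2, TRIB1, ATF4 and DDIT3 were highest in number 3.

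**Figure D3:**
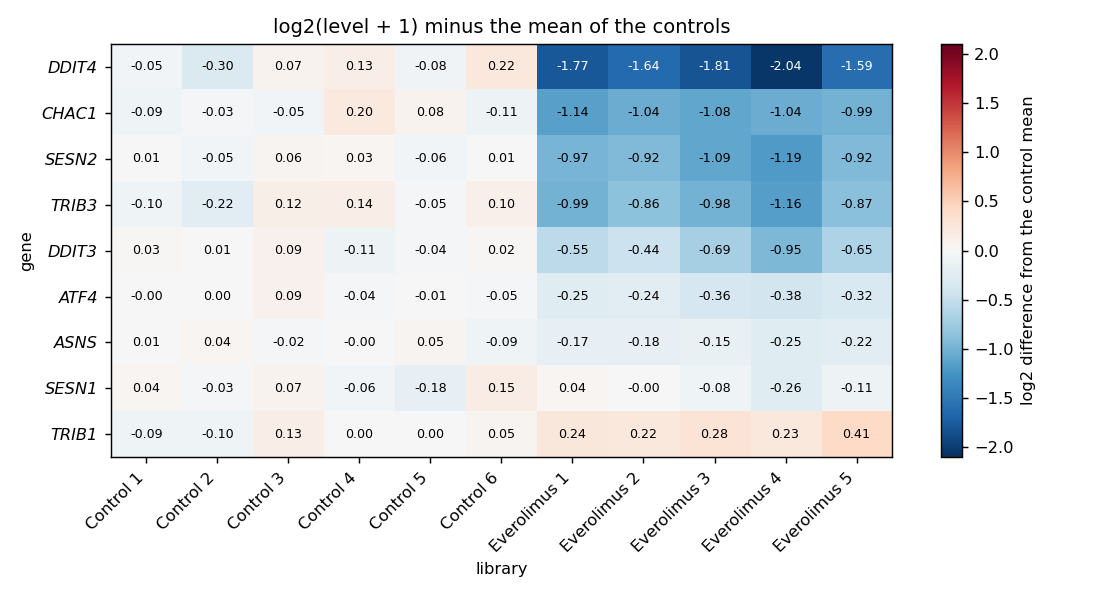
Log2(level + 1) of each tested gene in each of the 11 libraries, minus the mean of the 6 controls, on a colour scale from blue (lower) to red (higher). In the DDIT4 row the everolimus libraries run from -1.59 (number 5) to -2.04 (number 4), and in the TRIB1 row they are at 0.22 to 0.41.

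The rest of the pathway was described with 15 lists of related genes, 178 genes in all, of which 164 were tested, 57 rose and 47 fell. Each list count is to be read beside the shares of all tested genes, 27.8% higher and 27.4% lower. The lists too were chosen with earlier results of these data known, and no list was tested as a set. The eIF2 branch upstream of ATF4 was mixed. Of its 16 genes 4 rose and 3 fell (2 rose within the second set), with a median log2 fold change of -0.0050. The eIF2 kinase genes did not pass, among them EIF2AK4 (GCN2, the sensor of uncharged tRNA; -0.02, adjusted p = 0.699) and EIF2AK3 (PERK, the ER stress kinase; 0.06, adjusted p = 0.195). PPP1R15A (GADD34), the phosphatase subunit that reverses eIF2 phosphorylation and is itself induced by ATF4 and CHOP, rose from 543 ± 17.7 to 1603 ± 63.8 units (log2 1.56, SE 0.037, limma adjusted p = 2.65e-13). Its constitutive counterpart PPP1R15B fell (log2 -0.35), as did the eIF2B subunit genes EIF2B5 (-0.34, adjusted p = 3.79e-06) and EIF2B4 (-0.32). PPP1R15A thus moved opposite to DDIT3, TRIB3 and CHAC1.

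Of 9 tested bZIP partners and relatives, 2 rose and 3 fell (median -0.10). ATF3, a repressor induced by ATF4 and by many other signals, rose from 80.9 ± 5.66 to 259 ± 9.93 units (log2 1.67, SE 0.063, adjusted p = 3.26e-11). ATF5 rose by 0.28. NFIL3 fell from 1260 ± 106 to 672 ± 44.5 (log2 -0.90, adjusted p = 1.19e-08). The dimer partners CEBPB (0.05, adjusted p = 0.598) and CEBPG (-0.06, adjusted p = 0.357) did not pass.

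Enzymes of amino acid synthesis under ATF4 fell without exception among those that passed. Of 11 tested 8 fell and 0 rose (median -0.24), and 8 were lower without overlap of the groups, beside 27.4% and 17.6% of all genes. PSPH, of serine synthesis, went from 902 ± 31.7 units down to 452 ± 33.2 (log2 -0.997, SE 0.049, adjusted p = 4.64e-10). CBS, of transsulfuration, fell by 0.65 on the log2 scale, CTH, the next enzyme, by 0.49 and GPT2, an alanine transaminase, by 0.44. The folate enzymes SHMT2 (-0.01, adjusted p = 0.835) and MTHFD2 (0.07, adjusted p = 0.325) did not pass, and PHGDH, the first enzyme of serine synthesis, was listed at 0 in every library.

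Of the 12 aminoacyl-tRNA synthetases and the exporter XPOT, 10 fell and 0 rose (median -0.25). AARS (now AARS1) went from 4471 ± 130 units down to 3343 ± 60.4 (log2 -0.42, SE 0.029, adjusted p = 1.75e-08), TARS by 0.49 and CARS by 0.40. WARS, EPRS and LARS did not pass. ASNS, at -0.19, lay within the range of these modest changes, whereas TRIB3, CHAC1 and SESN2 lay outside it.

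Of 9 amino acid transporters tested 5 rose and 2 fell (median 0.14), beside 27.8% and 27.4% of all genes, or 1 fell under a filter at 100 units. The count that rose was 4 in every alternative where SLC3A2 (log2 0.14, limma adjusted p = 0.0462) lost its call. These were the second set, quantile normalization, no filter, the replicate block, no trend and most fits that left out a sample. SLC43A1, a carrier of large neutral amino acids, rose from 74.6 ± 3.78 to 129 ± 13.3 units (log2 0.78, adjusted p = 1.11e-06). The cationic carrier SLC7A1 rose by 0.39 and the glutamine carrier SLC38A2 by 0.38. The glycine carrier SLC6A9 fell from 57.3 ± 5.81 to 34.3 ± 1.96 (log2 -0.72, adjusted p = 1.76e-05). SLC7A11, the cystine carrier, stood at 0.10 (adjusted p = 0.175).

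Of 10 other stress-induced targets of ATF4 and CHOP 8 rose and 2 fell (median 0.56). Within the second set 6 rose, and GDF15 and ERO1L lost their calls there. GDF15 (limma adjusted p = 0.0389) also lost its call without a filter, without a trend and in several fits that left out a sample. The death receptor gene TNFRSF10B, a CHOP target, rose from 1788 ± 44.8 to 3363 ± 166 units (log2 0.91, SE 0.036, adjusted p = 5.03e-11). BBC3 (PUMA, a BH3-only death gene) rose by 0.95 and KLHL24 by 1.22. NUPR1, a small chromatin protein of stress responses, went from 153 ± 13.4 units down to 70.3 ± 13.4 (log2 -1.12, SE 0.114), and VLDLR fell by 0.44. Several of these genes also respond to p53 or to NF-kappaB, so the list is not specific to ATF4. Genes of the other ER stress arms, IRE1 and ATF6, rose in 12 of 14 cases and fell in 0 (median 0.17), EDEM1, of ER-associated degradation, by 0.35 (adjusted p = 1.43e-07). Of these 14, 9 rose within the first set, 8 within the second and 10 after quantile normalization.

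**Figure D4:**
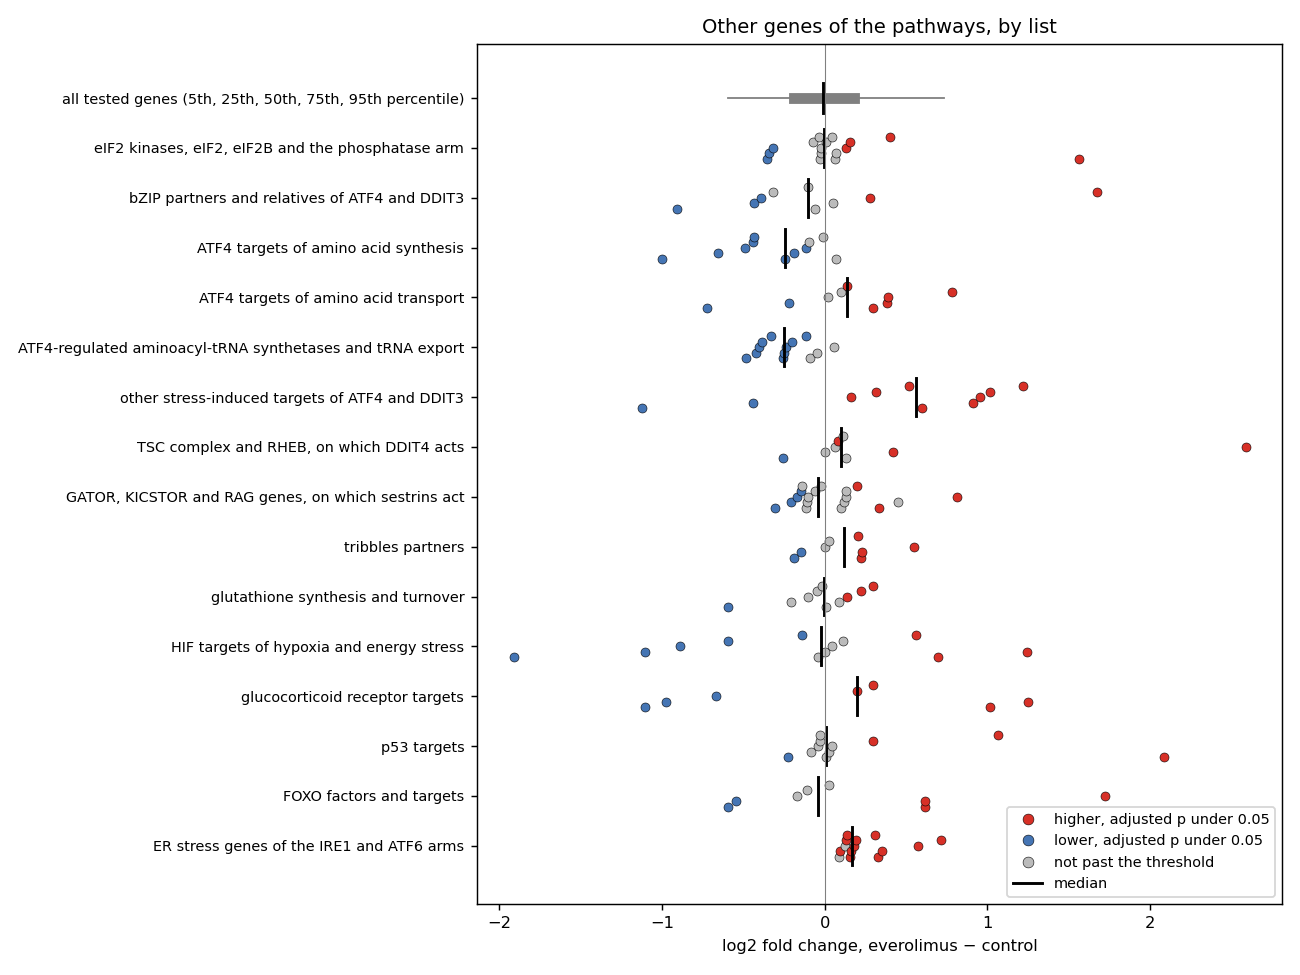
Log2 fold change of everolimus over control for each tested gene of the 15 lists (red higher, blue lower, grey not past the threshold, bar the median), under the distribution of all tested genes, whose 5th to 95th percentiles run from -0.60 to 0.73. The lists of amino acid synthesis and of aminoacyl-tRNA synthetases have their called genes to the left of 0, while ER stress genes and other stress-induced targets lie mostly to the right.

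Where REDD1 acts, 3 of 8 tested genes of the TSC complex and RHEB list rose and 1 fell (median 0.10). Those that rose were RHEBL1, YWHAZ (log2 0.42) and YWHAB (0.08), none of them a TSC complex subunit, and YWHAB lost its call within each library set. Neither RHEB (0.13, limma adjusted p = 0.17) nor the subunit gene TBC1D7 (0.06, adjusted p = 0.461) passed. RHEBL1, a homologue of the mTORC1 activator RHEB, rose from 29.7 ± 4.86 to 182 ± 12.6 units (log2 2.59, SE 0.106, adjusted p = 7.77e-11). TSC1 fell by 0.26 and TSC2 stood at 883 ± 43.8 and 882 ± 51.7 units (adjusted p = 0.991). DDIT4L, the paralogue of DDIT4, averaged 2.66 and 3.85 units and was not tested. Where sestrins act, 3 of 18 genes of GATOR, KICSTOR and the RAG GTPases rose and 4 fell (median -0.04), a smaller share than the 55.2% of all genes that changed. The count that fell was 0 within the first set, 5 within the second, 1 without everolimus 3, and 2 without control 4, control 6 or everolimus 4. GATSL3 (now CASTOR1), an arginine sensor that binds GATOR2 as SESN2 does, rose from 109 ± 13.4 to 191 ± 7.62 units (log2 0.81, adjusted p = 1.22e-06), while SESN2 fell. RRAGC rose by 0.33, and WDR59, a GATOR2 subunit, fell by 0.31 (adjusted p = 0.000565), a call lost within the first set (adjusted p = 0.0782).

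Among partners of the tribbles 4 of 8 rose and 2 fell (median 0.12). The TRIB3 partner AKT1 rose by 0.21, while the ligase gene RFWD2 (now COP1) fell by 0.19 and CDC25B by 0.15 (adjusted p = 0.00675). The CDC25B call was lost within the first set (adjusted p = 0.0757), where no gene of this list fell. TRIB2 averaged 4.14 and 2.57 units and was not tested. Of 10 genes of glutathione synthesis and turnover 3 rose and 1 fell (median -0.0040), or 2 fell without control 4. ANPEP, a peptidase of extracellular glutathione breakdown, rose by 0.30 (adjusted p = 2.28e-05), and GSR, glutathione reductase, fell from 1139 ± 74.6 to 755 ± 27.2 units (log2 -0.59, adjusted p = 9.07e-08). CHAC2, the paralogue of CHAC1, stood at 125 ± 21.7 and 108 ± 9.89 units (adjusted p = 0.148).

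Other inputs of these genes were set beside them. HIF, which induces DDIT4, had 3 of 12 tested targets higher and 5 lower (median -0.02). VEGFA fell from 4152 ± 146 to 1933 ± 163 units (log2 -1.11, adjusted p = 1.87e-10). EGLN3, picked once its value was known, fell by 1.91 on the log2 scale, beside -1.77 for DDIT4. ADM fell by 0.89, NDRG1 by 0.59 and SLC2A1 by 0.14. In contrast ANKRD37 rose by 1.24, LOX by 0.69 and BNIP3L by 0.56 (adjusted p = 1.12e-06), and BNIP3 stood at 0.00 (adjusted p = 0.976). DDIT4 is also a glucocorticoid receptor target. Of 7 tested genes on the list of such targets, which counts the receptor gene NR3C1 itself, 4 rose and 3 fell (median 0.20). TSC22D3 (GILZ) fell from 617 ± 86.0 to 287 ± 42.2 units (log2 -1.10), PER1 by 0.97 and the receptor gene NR3C1 by 0.66 (adjusted p = 1.87e-08), while SGK1 rose by 1.25 (adjusted p = 1.32e-11) and FKBP5 by 0.20. In the first set 2 of these 7 rose.

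Of 11 p53 targets, the class of SESN1, 3 rose and 1 fell (median 0.0050). PLK3 rose by 2.08 (adjusted p = 5.14e-12) and FAS by 1.07, but CDKN1A (-0.04, adjusted p = 0.687), MDM2 (0.01, adjusted p = 0.933) and RRM2B (0.03, adjusted p = 0.692) did not pass, like SESN1. C12orf5 (now TIGAR) fell by 0.23 (adjusted p = 0.00148), a call lost within the first set (adjusted p = 0.125), and 2 of these targets fell within the second set. Of 8 FOXO genes and targets, the class of SESN3, 3 rose and 2 fell (median -0.04). FOXO1 rose from 63.1 ± 5.69 to 209 ± 7.38 units (log2 1.72, adjusted p = 8.55e-11) and CITED2 fell by 0.59 (adjusted p = 3.06e-08), while SESN3 remained at 3 reads or fewer.

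Profiles over the 11 samples, each centred on its control mean, were compared by the root mean square (RMS) difference of log2 values for the 5 genes that changed by at least 0.5. This measure is dominated by the size of the everolimus shift. Nearest to DDIT4 were CCDC85C (RMS difference 0.104, log2 fold change -1.75) and ELF3 (0.105, -1.79), and the nearest of the 10 genes, CHAC1, was at 0.511. Nearest to SESN2 were PSPH (0.048, -0.997), HSD17B7 (0.050, -1.04) and FBXO17 (0.065, -0.99), with TRIB3 at 0.087. Nearest to TRIB3 were FBXO17 (0.069), NFIL3 (0.074) and BIN1 (0.079). CHAC1 was nearest to SEMA4B (0.083) and KAZ (0.086), and DDIT3 to DNAJC22 (0.075), CDKN2C (0.080) and GGA2 (0.082). PSPH and NFIL3 are also on the lists above. The lists were chosen with earlier results of these data known and the profiles use the same values, so this overlap is not separate evidence.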

How the data were processed

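RNA from 786-0 cells was sequenced with a TruSeq stranded mRNA kit, per the labels' protocols. The deposited values are a signal that, judged from the values themselves, is scaled so that the upper quartile of each library is about 1000. Per the submitters' processing notes, hg19, Picard 1.64, SAMtools and RSEM were used, without stated roles, and the sources used here do not give the aligner and annotation. The value of 1 read was found from the lowest steps, and 89.4% to 93.9% of values up to 200 reads were whole within 0.1 reads, too few for a count model. Floors cover counting error only.

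Groups were compared with limma 3.58.1 (R 4.3.3), fitted to log2(value + 1) with a mean-variance trend, over genes with at least 10 units in at least 5 samples, without covariates, two-sided, with Benjamini-Hochberg adjustment over all 12668 genes and a threshold of 0.05. Fold changes on this scale understate those of low genes. It was tested on simulated data. Ratios and figures used Python 3.11.15 with scipy 1.17.1. Replicates of a group differed by more than sampling noise (chi-square per degree of freedom 3.85 to 20.8). Named genes are the 10 members, the gene with the smallest p in each direction of each list, and the 3 nearest profiles. Any other gene was picked once its values were known. The members and lists were chosen with earlier results of these data known. Alternatives were pseudocounts of 0.1 and 10, no filter and a filter at 100 units, median centring, quantile normalization, library set as covariate or separately, a replicate block, no trend, and leaving out each sample. DEPTOR was not matched under the symbols searched, and some genes that the rule names are not reported here.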

Additional observations from a re-analysis of the deposited data

Results flagged for a closer look

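The groups of 48 named genes, 96 in all, were searched for a sample far from the rest of its group, and 4 were found. Chance flags about 1 in 20 groups. TRIB1 was at 349 units in everolimus 5, against 306 to 318 in the other 4. ATF4 was at 5865 units in control 3, against 5325 to 5507 in the other 5. AARS was at 4216 units in control 6, against 4481 to 4562. GATSL3 was at 178 units in everolimus 3, against 192 to 197. Without everolimus 5 the log2 fold change of TRIB1 was 0.24, and without control 3 that of ATF4 was -0.29.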

How the results depend on the processing

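Under all 22 alternatives 7 of the 9 tested genes fell, 1 rose and SESN1 did not pass (its adjusted p ran from 0.164 to 0.956, limma). DDIT4 ranged from -1.90 to -1.62 on the log2 scale, and leaving out 1 sample gave -1.83 to -1.70. TRIB1 came nearest to losing its call, within the first library set (adjusted p = 0.046). The genes called over the whole table numbered 2678 to 3640 higher and 2447 to 4035 lower, the last after quantile normalization. Of 1055 values of the 48 genes named by rule under an alternative, 1052 kept their direction and side of the threshold. The other 3 (C12orf5, CDC25B and WDR59 within the first set) lost their call. Apart from the members, these genes were named for the smallest p or for a profile near that of a changed member. Few of their calls could therefore be lost, and the share kept does not describe called genes in general. Other genes given in the text are not in this count, and some of their calls changed, such as those of FKBP5 and RFWD2 within the first set. The calls of SLC3A2 and GDF15 were lost under many alternatives. The 4 ratios of gene pairs kept theirs under 2 pseudocounts and without each sample (adjusted p up to 0.00952, exact permutation test). With the replicate number as a block, in which control 6 has no partner, 7 of the 9 genes fell and 1 rose, and 3278 genes were higher and 2993 lower. Deviations of same-numbered samples correlated at 0.603, 0.422, -0.508, 0.336 and 0.351 for numbers 1 to 5. Differently numbered samples of one library set reached similar values (0.612 for control 3 with everolimus 2). Samples of one set correlated positively and samples of different sets negatively, so these values cannot show whether samples within a set were paired. The labels state no pairing. Depth limits SESN3, which stayed at 3 reads or fewer.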
